A study of Arabidopsis thaliana with 30 samples.

Results

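The auxin response factors (ARF) and the Aux/IAA repressors are the 2 transcription factor families through which auxin sets gene expression, and here their transcripts are described in Arabidopsis thaliana inflorescence cells sorted by a SHP2 reporter. Gene positions are given as chromosome, start and end on build TAIR10.1. Members were the 15 ARF genes ARF1 to ARF11 and ARF16 to ARF19 and the 29 Aux/IAA genes, 44 of the 33602 loci counted. A member was kept where at least 10 counts were found in at least 3 of the 15 libraries, which 19543 loci met. All 15 ARF genes and 26 of the 29 Aux/IAA genes were kept, 41 in all. IAA6 and IAA29 reached 10 counts in 0 libraries and IAA34 in 1, while IAA15 (3 libraries), IAA5 (5) and IAA33 (8) passed most narrowly. Counts were present for 8 other annotated ARF genes (ARF12 to ARF15 and ARF20 to ARF23) only as 1 read, of ARF21, in 1 ALL-SORT library.

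All plants carried pSHP2-GAL4 and pUAS-3xYpet, a SHP2 promoter that drives GAL4 and a GAL4-responsive triple yellow fluorescent protein (YFP), crossed to ap1; cal plants with pAP1-AP1::GR, an AP1 fusion to the glucocorticoid receptor. ap1; cal mutants pile up inflorescence and floral meristems. YFP-POS (3 biological replicates) and YFP-NEG (4) were protoplasts, cells freed of their walls, sorted with and without fluorescence; ALL-SORT (4) were protoplasts passed through the sorter whatever their fluorescence; and NO-SORT (4) were inflorescences frozen whole. The SHP2 promoter marks the medial domain of the gynoecium, the female organ, from which the carpel margins and ovules arise. YFP-POS over YFP-NEG asks where the genes are expressed, and ALL-SORT over NO-SORT asks what protoplasting and sorting do. The latter comparison also includes any change in which cells were recovered. A group is defined by this 1 promoter and holds whatever cell types it labels, and in such bulk samples fewer cells of a type and less RNA per cell cannot be told apart.

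Auxin binds the TIR1/AFB F-box proteins together with an Aux/IAA protein, and the Aux/IAA is then degraded. Aux/IAA proteins otherwise bind ARFs and recruit TOPLESS (TPL) co-repressors, so their loss frees the ARFs on their target promoters. Class A ARFs (ARF5 to ARF8 and ARF19) have a glutamine-rich middle region and activate genes, and class B (ARF1 to ARF4, ARF9, ARF11 and ARF18) and class C (ARF10, ARF16 and ARF17) are mostly repressors. In flowers, ARF3 (ETTIN) patterns the gynoecium, ARF5 (MONOPTEROS) starts flower primordia, and ARF6 and ARF8 drive stamen and gynoecium maturation. Several ARF transcripts are cut through small RNAs: miR160 acts on class C, miR167 on ARF6 and ARF8, and the TAS3-derived tasiR-ARF on ARF2, ARF3 and ARF4.

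The small RNA sequences are shown because 8 of the 15 ARF transcripts carry their target sites. They come from the RefSeq annotation of build TAIR10.1, 5′ to 3′, and capitals mark the seed, bases 2 to 8. The 3 miR160 loci with an annotated mature arm give 1 identical sequence, and the 4 miR167 loci share a seed except miR167c, whose seed is shifted by 1 base.
miR160a, b and c: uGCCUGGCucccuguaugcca
miR167a and b: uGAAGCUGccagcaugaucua
miR167c: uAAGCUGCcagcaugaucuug
miR167d: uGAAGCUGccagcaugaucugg
TAS3A window: uuucuugaccuuguaagaccc
The TAS3A window (chr3:5862205-5862225, plus strand) was chosen as the 21 bases that pair best with ARF3 and ARF4, so it may be offset from the mature tasiR-ARF and their low mismatch counts follow from that choice.

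In the target sites, written as RNA 5′ to 3′ with T as U, capitals mark Watson-Crick pairs with the small RNA and lower case marks every other base, G:U pairs included. All 8 lie in coding exons.
ARF10, miR160 site (chr2:12115741-12115761, plus strand): aGGaAUACAGGGAGCCAGGCA
ARF16, miR160 site (chr4:14704141-14704161, minus strand): gGGuuUACAGGGAGCCAGGCA
ARF17, miR160 site (chr1:29274189-29274209, plus strand): UGGCAUgCAGGGAGCCAGGCA
ARF6, miR167 site (chr1:10686478-10686498, minus strand): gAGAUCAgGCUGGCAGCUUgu
ARF8, miR167 site (chr5:14633841-14633861, plus strand): UAGAUCAgGCUGGCAGCUUgu
ARF2, TAS3 site (chr5:24913262-24913282, plus strand): GGGUCUUgCAAGGUCAAGAAu
ARF3, TAS3 site (chr2:14325941-14325961, minus strand): GGGUCUUgCAAGGUCAAGAAA
ARF4, TAS3 site (chr5:24309507-24309527, minus strand): GGGUCUUgCAAGGUCAAGAAA
These sites had 1 to 4 mismatches. ARF3 and ARF4 held 2 sites of at most 4 mismatches each, and the best window of every ARF outside the family named for a small RNA had 7 to 9 mismatches. The match is a description of sequence and not a measure of cutting in these cells.

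Total counts per library ran from 13969774 to 19011084 in YFP-POS, from 13422821 to 15774591 in YFP-NEG, from 12644721 to 21027032 in ALL-SORT and from 14941768 to 16692127 in NO-SORT. Levels are CPM, counts scaled to the size of the library, after TMM scaling over the 15 libraries. Genes with an adjusted p under 0.05 in edgeR's quasi-likelihood test are said to be called. All 13 medial gynoecium markers were called higher in YFP-POS than in YFP-NEG, and their summed level was 911 to 1433 CPM in YFP-POS libraries and 97.7 to 125 CPM in YFP-NEG libraries. All 7 tested stamen, petal and tapetum markers were called lower, and 6 of 8 wounding-response genes were called lower as well. In this comparison 24.4% of all genes were called higher and 24.4% lower. In ALL-SORT over NO-SORT, 7 of 12 tested medial gynoecium markers were called higher, and their median log2 fold change was 0.83. Of all genes, 9.84% were called higher and 3.6% lower there. The 7 tested stamen, petal and tapetum markers had a median of -0.98 there, and 0 were called. The part of cell recovery in that comparison was not tested. ALL-SORT replicate 4 stood apart from the other ALL-SORT libraries in the wounding-response genes, with a summed 1268 CPM against 4025 to 5910 CPM in the other ALL-SORT libraries and 87.7 to 131 CPM in NO-SORT libraries. Calls of members in the comparisons that use ALL-SORT are given below with and without this library. Of the 44 members, 13 overlap another annotated gene, ARF19 and IAA34 on the same strand and 11 on the opposite strand (ARF1, ARF5 and ARF7 among them), and their counts are uncertain to that extent.

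Summed over the 15 genes, ARF transcripts were most abundant in YFP-POS, with 2438, 2424 and 2830 CPM in YFP-POS libraries and 1409, 1374, 1447 and 1360 CPM in YFP-NEG libraries. The sums were 2004, 1652, 2024 and 2396 CPM in ALL-SORT and 2395, 1916, 1757 and 1928 CPM in NO-SORT. No YFP-NEG library reached the lowest library of another group. Summed over 29 genes, Aux/IAA transcripts were nearer to each other across groups, at 1837 ± 170 CPM in YFP-POS (n = 3, SD), 1723 ± 81.2 CPM in YFP-NEG (n = 4, SD), 1706 ± 135 CPM in ALL-SORT (n = 4, SD) and 1526 ± 43.0 CPM in NO-SORT (n = 4, SD). The sorted groups overlapped in this sum, while the NO-SORT libraries, at 1478 to 1569 CPM, lay just below the lowest sorted library, at 1570 CPM. Behind the overlapping Aux/IAA sums of YFP-POS and YFP-NEG, single members differed between these groups by more than 2 log2 units in both directions.

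Per kilobase of exon, which allows levels to be compared between genes, ARF5 and ARF2 led the ARF family in every group. In YFP-POS the mean level was 152.5 CPM per kb for ARF5, 149.5 for ARF2 and 111.2 for ARF18, and in YFP-NEG it was 90.8 for ARF5, 90.0 for ARF2 and 46.5 for ARF18. ARF5 and ARF2 do not differ beyond their spread in YFP-POS, where their libraries ranged from 509 to 616 CPM for ARF5 and from 519.7 to 677 CPM for ARF2. IAA8 and IAA9 led the Aux/IAA family in every group, at 345.5 CPM per kb for IAA8 and 215.6 for IAA9 in YFP-POS and 230.7 for IAA8 and 200.1 for IAA9 in YFP-NEG. IAA8 alone made up 35% of the family's per-kb level in YFP-POS and 24.6% in YFP-NEG. The next Aux/IAA in YFP-POS, IAA16, stood at 55.8 CPM per kb.

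**Figure D1:**
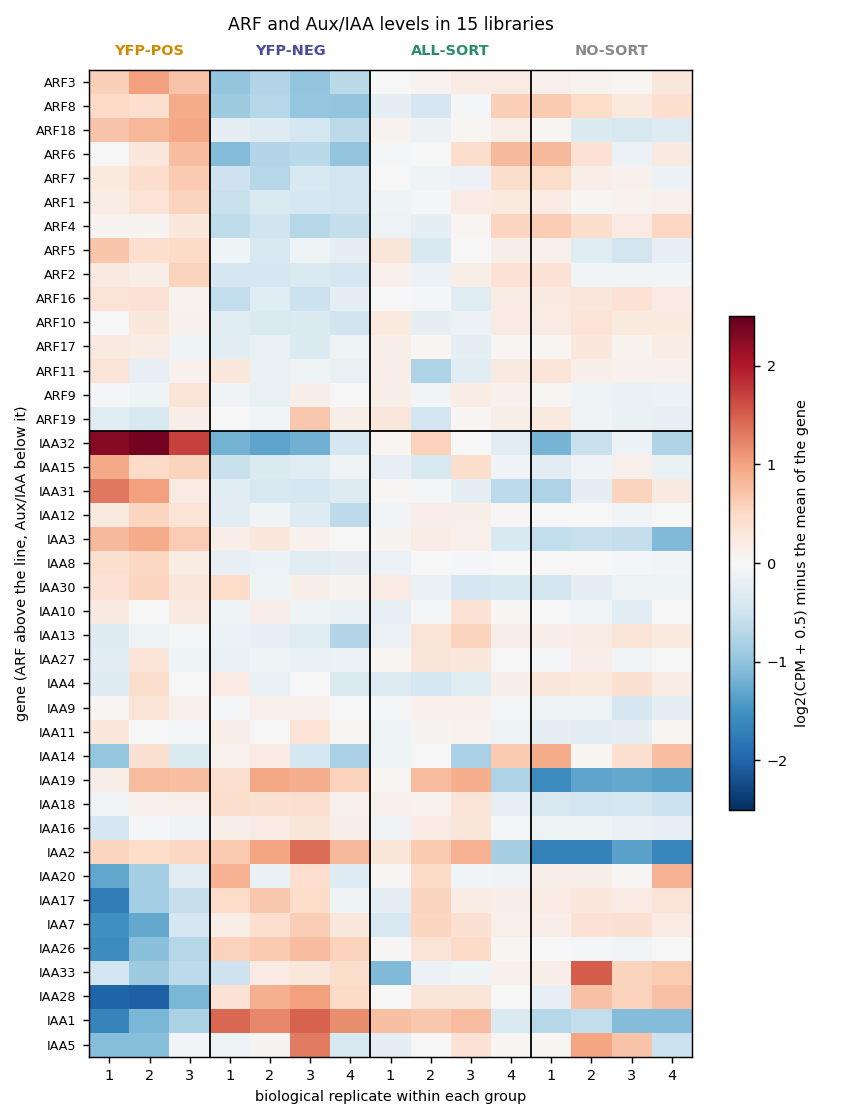
Level of the 41 kept members in the 15 libraries, as log2(CPM + 0.5) minus the mean of the gene over all libraries (colour, red above and blue below the mean), with libraries in columns by group and biological replicate. ARF genes stand above the line and Aux/IAA genes below it, each ordered by the log2 fold change of YFP-POS over YFP-NEG, and most ARF rows are red in YFP-POS and blue in YFP-NEG, as in the sums of 2424 to 2830 CPM and 1360 to 1447 CPM.

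ARF transcripts were higher in YFP-POS than in YFP-NEG for 11 of the 15 genes, and none was called lower. The median log2 fold change over the 15 genes was 0.72, against -0.01 over all 18830 genes tested. Of all genes tested, 24.4% were called higher and 24.4% lower. Of the 3708 tested genes with 2514 to 4432 bp of exon, the range of the ARF genes, 36.2% were called higher and 16.5% lower, and the part of transcript length in the ARF result was not tested. The libraries of 12 ARFs, ARF17 included, lay above those of YFP-NEG without overlap, where 51.1% of all genes did not overlap in either direction. All 11 called ARFs had a mean level in ALL-SORT between those of YFP-POS and YFP-NEG. ALL-SORT holds cells with and without fluorescence, so a mean in between follows largely from its design and is no added support. With the replicate number as a block, ARF19 was added as lower (log2 fold change -0.40, adjusted p = 0.0338).

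ARF3 (AT2G33860, chr2:14325206-14328978), the gynoecium patterning factor of class B, had the largest ARF difference. It had 149, 201 and 160.1 CPM in YFP-POS libraries, 49.4, 59.0, 48.9 and 61.1 CPM in YFP-NEG libraries, 97.9, 104, 113 and 113 CPM in ALL-SORT libraries and 108, 104, 101 and 119.6 CPM in NO-SORT libraries. Every YFP-POS library was above all others and every YFP-NEG library below all others. The log2 fold change was 1.61 ± 0.14 (SE, with an adjusted p of 5.3e-06). ALL-SORT and NO-SORT overlapped for ARF3.

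ARF8 (AT5G37020, chr5:14629453-14634454), a class A factor of stamen and carpel maturation and a miR167 target, followed. It had 158, 150.1 and 211 CPM in YFP-POS libraries and 60.0, 67.4, 56.5 and 55.7 CPM in YFP-NEG libraries. The groups did not overlap, and the log2 fold change was 1.5 ± 0.14 (SE, with an adjusted p of 8.96e-06). ARF6 (AT1G30330, chr1:10685822-10690988), its partner in that role and the other miR167 target, had 192, 232 and 333 CPM in YFP-POS and 91.1, 117, 121 and 98.3 CPM in YFP-NEG, with a log2 fold change of 1.21 ± 0.18 (SE, with an adjusted p of 0.000172). ARF6 ranged widely among the YFP-POS libraries but was above every YFP-NEG library in each.

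ARF18 (AT3G61830, chr3:22887889-22891455) of class B had 263, 285 and 315 CPM in YFP-POS libraries, 134, 128, 117 and 102 CPM in YFP-NEG libraries, 169, 145, 164 and 178 CPM in ALL-SORT libraries and 166, 127, 121 and 128 CPM in NO-SORT libraries. YFP-POS stood above every other library, and the log2 fold change over YFP-NEG was 1.23 ± 0.13 (SE, with an adjusted p of 2.03e-05). ARF5 (MONOPTEROS, AT1G19850, chr1:6886669-6891404) had 616, 509 and 528 CPM in YFP-POS libraries and 350.5, 285, 351 and 326 CPM in YFP-NEG libraries, a log2 fold change of 0.72 ± 0.14 (SE, with an adjusted p of 0.00099). The YFP-POS libraries again lay above every YFP-NEG library.

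By class, 4 of 5 class A genes, 5 of 7 class B genes and 2 of 3 class C genes were called higher, with median log2 fold changes of 0.95, 0.73 and 0.48. ARF7, which with ARF19 acts in lateral root formation, was higher by a log2 fold change of 0.95 ± 0.13 (SE, with an adjusted p of 0.000134), while ARF19 had 18.4, 17.4 and 25.5 CPM in YFP-POS and 22.5, 21.6, 36.3 and 25.2 CPM in YFP-NEG, groups that overlap, and a log2 fold change of -0.40 ± 0.20 (SE, with an adjusted p of 0.125). In class B, ARF1 and ARF2, known for floral organ abscission and senescence, had log2 fold changes of 0.80 ± 0.12 and 0.71 ± 0.13 (SE). ARF4, which acts with ARF3 in abaxial identity, had 0.73 ± 0.12 (SE). All 3 were called, with adjusted p between 0.000217 and 0.000928. ARF9 and ARF11 did not pass the test, at 0.08 ± 0.14 and 0.12 ± 0.16 (SE).

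By target site, the 3 miR160 targets of class C gave smaller values than the other targets: ARF16 had a log2 fold change of 0.66 ± 0.17 (SE, with an adjusted p of 0.00564), ARF10 of 0.48 ± 0.12 (SE, with an adjusted p of 0.00622) and ARF17, which did not pass, of 0.32 ± 0.15 (SE, with an adjusted p of 0.105). The miR167 targets ARF8 and ARF6 gave 1.5 and 1.21, and the TAS3 targets ARF3, ARF4 and ARF2 gave 1.61, 0.73 and 0.71. The 7 ARFs without such a site ranged from -0.40 (ARF19) to 1.23 (ARF18), a range that overlaps that of the targets, and no test between these classes was made. Reads at the miRNA loci were few or none, and mature small RNAs were not measured.

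**Figure D2:**
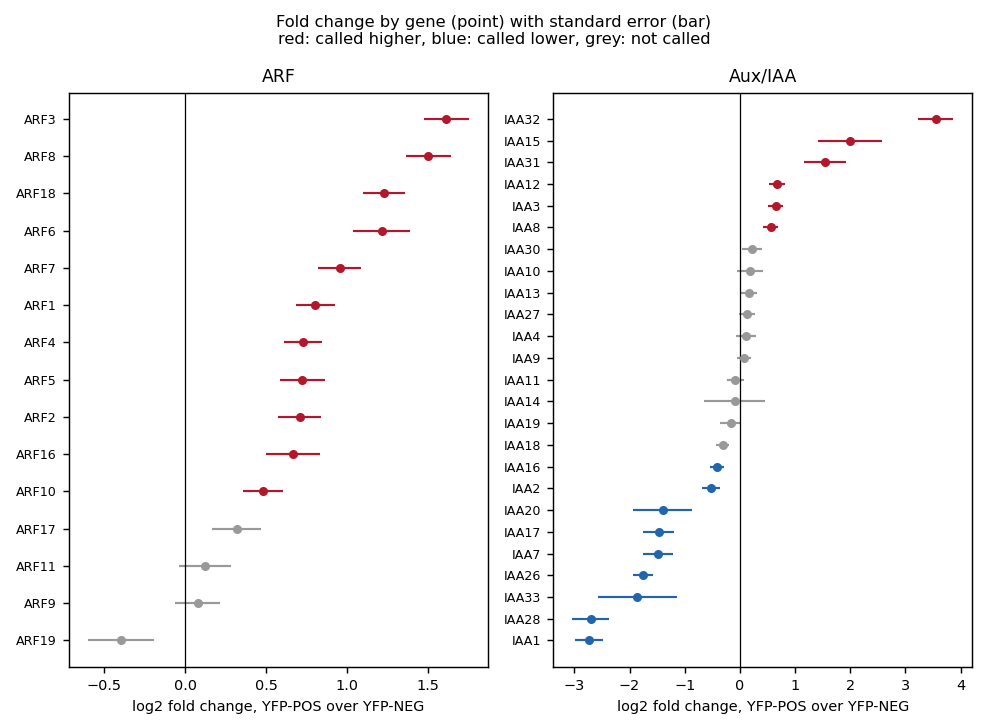
Log2 fold change of YFP-POS (n = 3) over YFP-NEG (n = 4) for the 15 ARF genes (left) and 25 tested Aux/IAA genes (right), with its standard error as a bar. Red points were called higher, blue points lower, and grey points were not called; the ARF genes run from -0.40 for ARF19 to 1.61 for ARF3, and the Aux/IAA genes from -2.74 for IAA1 to 3.55 for IAA32.

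Aux/IAA transcripts split in both directions between YFP-POS and YFP-NEG: of 25 tested, 6 were called higher and 9 lower, and the median log2 fold change was -0.08. Of all genes, 24.4% were called higher and 24.4% lower, 48.8% together, against 15 of these 25. The libraries of 6 Aux/IAA genes lay above those of YFP-NEG without overlap and of 7 below. Of all genes, 51.1% did not overlap in either direction. The 10 that were not called had log2 fold changes between -0.31 (IAA18) and 0.22 (IAA30). IAA5 was kept but not tested, with 0, 0 and 0.495 CPM in YFP-POS libraries and 0.452, 0.590, 2.08 and 0.296 CPM in YFP-NEG libraries. Among the 12050 tested genes with 759 to 2222 bp of exon, the range of the Aux/IAA genes, 20% were called higher and 27.7% lower. For 13 of the 15 called genes, the ALL-SORT mean lay between YFP-POS and YFP-NEG, the exceptions being IAA2 and IAA3. Without ALL-SORT replicate 4 it did so for 14, the exception being IAA3. As for the ARFs, a mean in between follows largely from the design of ALL-SORT.

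IAA32 (AT2G01200, chr2:117969-120095) had the largest difference of the 40 members tested. IAA32 belongs to the noncanonical Aux/IAA proteins that lack domain II, the segment through which TIR1/AFB receptors bind. It had 16.3, 17.6 and 10.9 CPM in YFP-POS libraries, 1.03, 0.885, 1.01 and 2.07 CPM in YFP-NEG libraries, 3.1, 4.66, 2.94 and 2.38 CPM in ALL-SORT libraries and 1.04, 1.84, 2.64 and 1.56 CPM in NO-SORT libraries. All YFP-POS libraries were above all others, and the log2 fold change over YFP-NEG was 3.55 ± 0.32 (SE, with an adjusted p of 6.33e-06). IAA32 overlaps a neighbouring gene on the opposite strand, AT2G01210, and whether the counting used the strand is not given in the sources used here, so its counts may include reads of that gene.

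IAA31 (AT3G17600, chr3:6019973-6021147), another noncanonical member, with a degenerate domain II, was also higher, at 5.22, 4.16 and 2.16 CPM in YFP-POS libraries and 1.42, 1.25, 1.2 and 1.33 CPM in YFP-NEG libraries, a log2 fold change of 1.54 ± 0.38 (SE, with an adjusted p of 0.00575). Noncanonical members did not move together: IAA20 and IAA33 were called lower, at log2 fold changes of -1.40 ± 0.53 and -1.86 ± 0.72 (SE), and IAA30 was not called, at 0.22 ± 0.18 (SE). IAA20 and IAA33 rest on few counts. IAA20 had 8 to 23 counts in YFP-POS libraries and 18 to 57 in YFP-NEG libraries, and IAA33 had 1 to 5 counts in YFP-POS and 4 to 13 in YFP-NEG. IAA33 was at the threshold itself, with an adjusted p of 0.05 as rounded; it missed the threshold with the replicate block and without YFP-POS replicate 1, 2 or 3 (adjusted p = 0.0506, 0.135 and 0.105). IAA20 missed it without YFP-NEG replicate 1 or 3 (0.147 and 0.088) and without YFP-POS replicate 1 or 2 (0.121 and 0.0935).

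Among canonical repressors, IAA12 (BODENLOS, AT1G04550, chr1:1240294-1242157), the Aux/IAA partner of ARF5 in the embryo, was higher together with ARF5. It had 68.6, 83.3 and 73.0 CPM in YFP-POS libraries, 47.6, 53.9, 46.3 and 36.5 CPM in YFP-NEG libraries, 54.6, 65.2, 64.1 and 58.9 CPM in ALL-SORT libraries and 57.5, 57.4, 54.9 and 58.2 CPM in NO-SORT libraries. The log2 fold change over YFP-NEG was 0.67 ± 0.14 (SE, with an adjusted p of 0.00215), with no overlap between these groups. IAA13, the closest relative of IAA12, had a log2 fold change of 0.16 ± 0.15 (SE) and was not called.

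IAA3 (SHORT HYPOCOTYL 2) and IAA8 were also higher, by log2 fold changes of 0.65 ± 0.14 (SE, with an adjusted p of 0.0024) and 0.56 ± 0.13 (SE, with an adjusted p of 0.00423). IAA8 (AT2G22670, chr2:9636346-9638761) had 722, 787 and 624 CPM in YFP-POS libraries and 477, 497, 455 and 470.4 CPM in YFP-NEG libraries, so the most abundant Aux/IAA was also one of those that separated the groups without overlap. IAA9, next in abundance, had 461 ± 46.4 CPM in YFP-POS (n = 3, SD) and 428 ± 25.1 CPM in YFP-NEG (n = 4, SD), and was not called. IAA15 was called higher at a log2 fold change of 1.99 ± 0.58 (SE, with an adjusted p of 0.0139), on 24, 10 and 14 counts in YFP-POS libraries and 2, 3, 4 and 5 in YFP-NEG libraries, and missed the threshold without YFP-POS replicate 1 (adjusted p = 0.0538).

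IAA1 (AT4G14560, chr4:8360996-8362033), whose transcript is rapidly induced by auxin in seedlings, had the largest difference among the members called lower. It had 1.58, 2.48 and 3.28 CPM in YFP-POS libraries, 17.2, 14.7, 17.9 and 14.1 CPM in YFP-NEG libraries, 10.6, 9.93, 10.7 and 4.62 CPM in ALL-SORT libraries and 3.52, 3.79, 2.59 and 2.62 CPM in NO-SORT libraries. The log2 fold change of YFP-POS over YFP-NEG was -2.74 ± 0.25 (SE, with an adjusted p of 8.31e-06). YFP-NEG was above all other libraries for IAA1, and YFP-POS and NO-SORT overlapped at the low end. Beside this, the wounding-response genes had a summed 2332 to 3802 CPM in YFP-POS, 4593 to 6525 CPM in YFP-NEG, 1268 to 5910 CPM in ALL-SORT and 87.7 to 131 CPM in NO-SORT, and their part in the IAA1 result was not tested.

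IAA28 (AT5G25890, chr5:9033204-9035140), a repressor known from lateral root initiation, had 1.25, 1.2 and 2.66 CPM in YFP-POS libraries, 8.52, 12.5, 13.7 and 9.26 CPM in YFP-NEG libraries, 6.50, 8.18, 8.07 and 6.48 CPM in ALL-SORT libraries and 5.54, 11.1, 9.88 and 11.1 CPM in NO-SORT libraries. YFP-POS was below all other libraries, and the log2 fold change over YFP-NEG was -2.7 ± 0.33 (SE, with an adjusted p of 5.19e-05). IAA26 (AT3G16500, chr3:5612203-5614803) had 34.1, 49.6 and 62.5 CPM in YFP-POS and 153, 161, 177 and 153 CPM in YFP-NEG, with a log2 fold change of -1.75 ± 0.18 (SE, with an adjusted p of 1.54e-05). NO-SORT, at 101, 100.0, 98.3 and 102 CPM for IAA26, lay between YFP-POS and YFP-NEG.

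IAA7 (AXR2, AT3G23050, chr3:8194606-8197161) and IAA17 (AXR3, AT1G04250, chr1:1136078-1138663), repressors first found through dominant auxin-resistant mutants, were lower to like extents. IAA7 had 3.75, 4.56 and 8.66 CPM in YFP-POS and 13.3, 16.0, 18.4 and 14.4 CPM in YFP-NEG, a log2 fold change of -1.48 ± 0.27 (SE, with an adjusted p of 0.000782). IAA17 had 3.97, 7.84 and 9.52 CPM in YFP-POS and 20.1, 23.4, 20 and 13.4 CPM in YFP-NEG, a log2 fold change of -1.47 ± 0.28 (SE, with an adjusted p of 0.00102). Both separated the groups without overlap. IAA2 and IAA16 were lower by smaller amounts, -0.52 ± 0.17 and -0.42 ± 0.13 (log2, SE). IAA2 missed the threshold without YFP-NEG replicate 3 or YFP-POS replicate 2 (adjusted p = 0.0663 and 0.0508), and IAA16 without YFP-POS replicate 1 (0.0829). IAA18 was added as lower with the replicate block (log2 fold change -0.39, adjusted p = 0.0171), against -0.31 and 0.0537 without it. Stamen, petal and tapetum markers were lower in YFP-POS in parallel with these repressors, with a summed 102.5 to 149 CPM in YFP-POS and 401 to 467 CPM in YFP-NEG, and their part in these differences was not tested.

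**Figure D3:**
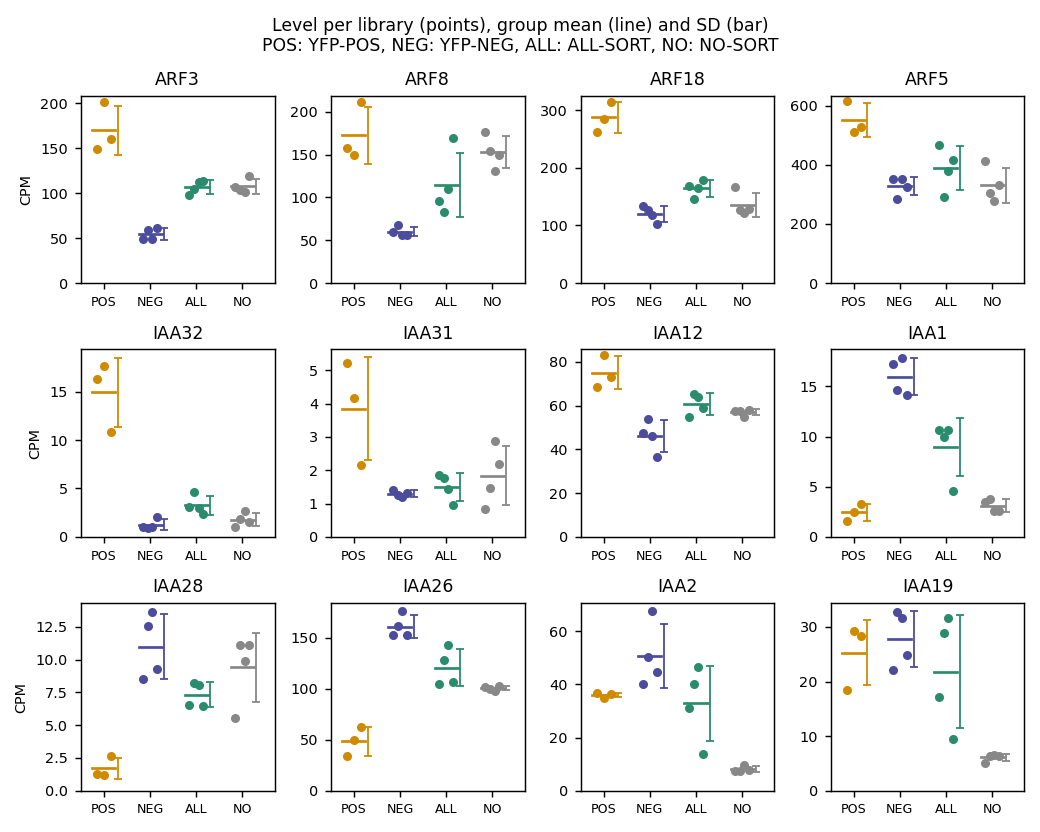
CPM of 12 members in each library (points), with the group mean (line) and SD (bar); there are 3 YFP-POS libraries and 4 of each other group, and each panel starts at 0. ARF3, ARF18 and IAA32 stand above every other library in YFP-POS, IAA28 and IAA26 stand below every other library there, and IAA2 and IAA19 are below 10 CPM in each NO-SORT library.

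ALL-SORT over NO-SORT moved a few Aux/IAA genes and no ARF past the threshold. In edgeR 0 of 15 ARFs were called and 3 had an unadjusted p under 0.05, while of all 18733 genes 13.4% were called. DESeq2 called 0 of 15 ARFs and 20.5% of all genes. The median ARF log2 fold change was -0.08, against -0.04 over all genes, and the libraries of 1 ARF, ARF16, lay below without overlap, where 23.2% of all genes did not. For the ARFs named for floral roles, the log2 fold changes were -0.07 ± 0.10 for ARF3, 0.18 ± 0.17 for ARF5, -0.07 ± 0.23 for ARF6 and -0.47 ± 0.20 for ARF8 (SE), with adjusted p of 0.655, 0.486, 0.858 and 0.134. Without ALL-SORT replicate 4 they were -0.09 for ARF3, 0.15 for ARF5, -0.26 for ARF6 and -0.72 for ARF8. In that fit, 29.7% of all genes were called and 3 ARFs were called lower: ARF8 (adjusted p = 0.00251), ARF4 at -0.61 (0.00486) and ARF16 at -0.45 (0.0273).

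ALL-SORT replicate 4 resembled 1 unsorted library in the ARFs. Each of the 15 ARFs had a CPM ratio of ALL-SORT replicate 4 to NO-SORT replicate 1 between 0.93 and 1.07, so 15 of 15 lay within 10%. In the 15 other pairs of an ALL-SORT and a NO-SORT library, 2 to 6 of 15 lay within 10%. ARF2 had 592 CPM in ALL-SORT replicate 4 and 595 CPM in NO-SORT replicate 1, while the other ALL-SORT libraries had 417 to 509 CPM and the other NO-SORT libraries 440.5 to 442 CPM. Among the 26 kept Aux/IAA genes, 15 lay within 10% in that pair, and the largest ratio was 2.29. ALL-SORT replicate 4 stood apart beyond the 2 families, and it was kept in the main fits. In ALL-SORT over NO-SORT, 29.7% of all genes were called without it, against 13.4% with all libraries. The shares were 7.5%, 8.17% and 6.49% without ALL-SORT replicate 1, 2 or 3. Correlations between libraries ran from 0.848 to 0.977 for ALL-SORT with NO-SORT and from 0.934 to 0.979 within ALL-SORT. The likeness was seen after the values were known, and its cause was not tested.

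Of 24 Aux/IAA genes tested in ALL-SORT over NO-SORT, 6 were called, 5 higher and 1 lower, where all genes gave 9.84% higher and 3.6% lower. The share of all calls that were higher was 73.2%, and it was 59.4% with upper-quartile scaling and 51.5% without ALL-SORT replicate 4. IAA2, IAA19 and IAA1, which are auxin-induced in seedlings, had the largest values. IAA2 (AT3G23030, chr3:8180646-8182095) had 31.3, 40.0, 46.5 and 13.9 CPM in ALL-SORT libraries, 7.43, 7.42, 9.65 and 7.75 CPM in NO-SORT libraries and a log2 fold change of 1.96 ± 0.32 (SE, with an adjusted p of 0.00331). IAA19 (MASSUGU 2, AT3G15540, chr3:5264001-5265695), which acts in hypocotyl bending and stamen filament growth, had 17.2, 28.9, 31.6 and 9.48 CPM in ALL-SORT libraries, 5.15, 6.39, 6.55 and 6.30 CPM in NO-SORT libraries and a log2 fold change of 1.77 ± 0.33 (SE, with an adjusted p of 0.00742). IAA1 had a log2 fold change of 1.46 ± 0.29 (SE, with an adjusted p of 0.00991). Without ALL-SORT replicate 4 the log2 fold changes were 2.22 for IAA2, 2.02 for IAA19 and 1.68 for IAA1, with adjusted p of 2.9e-06, 3.73e-05 and 0.000136.

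For all 3 genes, ALL-SORT replicate 4 was the lowest ALL-SORT library and yet above every NO-SORT library, so the groups did not overlap. The 8 wounding-response genes were all called higher in ALL-SORT, and replicate 4 was again the lowest of ALL-SORT, as given above; their part in the Aux/IAA result was not tested. IAA2 and IAA19 were high in all 3 sorted groups, at 36.0 ± 0.90 CPM in YFP-POS (n = 3, SD) and 50.6 ± 11.9 CPM in YFP-NEG (n = 4, SD) for IAA2, and at 25.3 ± 6.01 CPM in YFP-POS (n = 3, SD) and 27.8 ± 5.12 CPM in YFP-NEG (n = 4, SD) for IAA19. IAA1 was not, since its YFP-POS libraries overlapped NO-SORT.

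IAA3 and IAA18 were higher and IAA4 lower in ALL-SORT than in NO-SORT. The log2 fold changes were 0.68 ± 0.18 (SE, with an adjusted p of 0.035) for IAA3, 0.50 ± 0.12 (SE, with an adjusted p of 0.0258) for IAA18 and -0.54 ± 0.14 (SE, with an adjusted p of 0.0273) for IAA4. All 3 missed the threshold when any 1 of ALL-SORT replicates 1 to 3 or NO-SORT replicates 2 to 4 was left out. Adjusted p were then up to 0.0986 for IAA3, 0.0909 for IAA18 and 0.089 for IAA4. The count of called Aux/IAA genes was then 3, where 6.36% to 8.17% of all genes were called, against 13.4% with all libraries. IAA12 did not differ beyond its spread, at 0.03 ± 0.09 (SE, adjusted p = 0.827), or 0.05 without ALL-SORT replicate 4. Without that library 7 Aux/IAA genes were called: IAA3 was at 0.80, IAA18 at 0.58 and IAA4 at -0.69 (adjusted p = 0.00457, 0.00211 and 0.000851), and IAA33 was added as lower (-2.14, adjusted p = 0.0495).

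**Figure D4:**
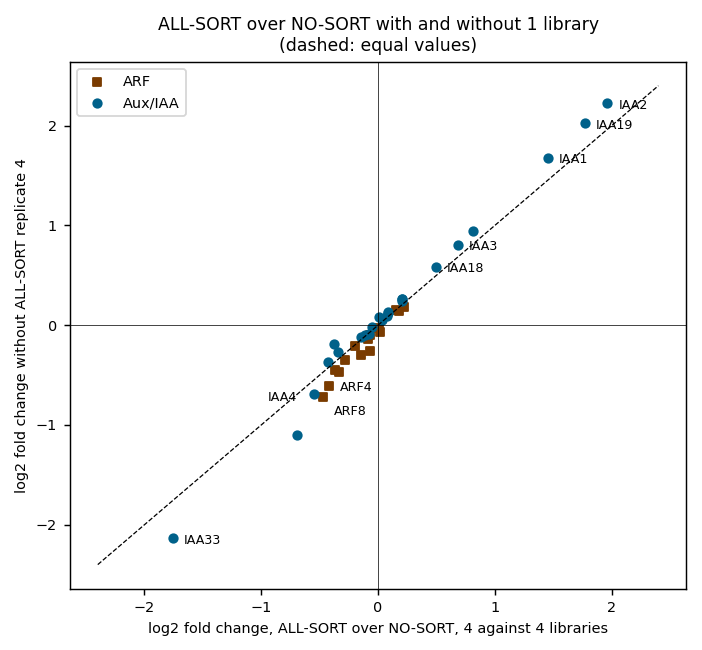
Log2 fold change of ALL-SORT over NO-SORT for ARF (squares) and Aux/IAA genes (circles) with 4 against 4 libraries (horizontal axis) and without ALL-SORT replicate 4 (vertical axis); the dashed line marks equal values. IAA2 is the highest point at 1.96 on the horizontal axis, and ARF8 lies at -0.47 on the horizontal and -0.72 on the vertical axis.

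The promoters of IAA19, IAA1 and IAA32 are shown because they belong to Aux/IAA genes with large differences and hold an auxin response element. Each is the 250 bases before the annotated transcript start in RefSeq TAIR10.1, on the plus strand, and capitals mark TGTCTC or TGTCGG on either strand (GAGACA or CCGACA as read on the gene's strand).
IAA19 promoter (chr3:5263751-5264000): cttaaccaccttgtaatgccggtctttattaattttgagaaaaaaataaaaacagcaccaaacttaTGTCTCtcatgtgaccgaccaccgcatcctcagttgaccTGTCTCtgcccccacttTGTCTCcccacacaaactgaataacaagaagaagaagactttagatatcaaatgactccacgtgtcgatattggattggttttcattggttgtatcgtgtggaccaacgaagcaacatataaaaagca
IAA1 promoter (chr4:8360746-8360995): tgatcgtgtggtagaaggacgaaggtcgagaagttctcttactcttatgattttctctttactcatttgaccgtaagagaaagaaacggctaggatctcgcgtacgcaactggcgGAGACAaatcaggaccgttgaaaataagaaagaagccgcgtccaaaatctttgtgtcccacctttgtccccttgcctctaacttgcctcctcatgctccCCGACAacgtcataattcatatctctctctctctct
IAA32 promoter (chr2:117719-117968): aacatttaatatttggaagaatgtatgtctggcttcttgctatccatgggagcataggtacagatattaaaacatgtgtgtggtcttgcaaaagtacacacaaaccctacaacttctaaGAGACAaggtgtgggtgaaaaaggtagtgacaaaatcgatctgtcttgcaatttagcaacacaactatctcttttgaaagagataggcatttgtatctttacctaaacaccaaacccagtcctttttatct
The elements begin 184, 145 and 128 bases before the start in IAA19, 135 and 36 in IAA1 and 131 in IAA32. One or the other motif was found in 13 of 29 Aux/IAA promoters (44.8%), 3 of 15 ARF promoters (20%) and 14.7% of 27443 protein-coding promoters of the same length. In YFP-POS over YFP-NEG, the 10 tested Aux/IAA genes with a motif gave 3 higher and 3 lower calls, and the 15 without one gave 3 higher and 6 lower. In ALL-SORT against NO-SORT, 2 of the 10 with a motif (IAA1 and IAA19) and 3 of the 14 without one (IAA2, IAA3 and IAA18) were called higher. A motif match is no site of binding, and its absence from this window says nothing of an ARF elsewhere.

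Against ALL-SORT, which shares its libraries with the other comparisons and holds cells of both fractions, the sorted fractions differed less. YFP-POS over ALL-SORT called 2 of 15 ARFs, both higher: ARF18 at 0.75 ± 0.12 (SE, with an adjusted p of 0.0061) and ARF3 at 0.61 ± 0.14 (SE, with an adjusted p of 0.0189), where 3.36% of 18767 genes were higher and 10.5% lower. The libraries of 3 ARFs lay above ALL-SORT without overlap, and 28.1% of all genes did not overlap. Of 24 Aux/IAA genes, 2 were higher, IAA32 at 2.13 ± 0.29 (SE, with an adjusted p of 0.00243) and IAA3 at 0.75 ± 0.18 (SE, with an adjusted p of 0.0256), and 5 were lower. The 5 were IAA28 (-2.16), IAA1 (-1.94), IAA26 (-1.37), IAA7 (-1.34) and IAA17 (-1.30), with adjusted p between 0.00358 and 0.0276. With the replicate block, 7 ARFs and 14 Aux/IAA genes were called, where 43% of all genes were. The block added ARF8 (0.77), ARF5 (0.50), ARF7 (0.47), ARF11 (0.30) and ARF1 (0.28), all higher. Among the Aux/IAA genes it added IAA31 (1.08), IAA30 (0.46), IAA8 (0.36) and IAA4 (0.33) as higher and IAA13 (-0.46), IAA16 (-0.40) and IAA27 (-0.29) as lower, with adjusted p between 0.00144 and 0.0401. Only 1 ARF was called without ALL-SORT replicate 1 or 3 or YFP-POS replicate 2, and 3 Aux/IAA genes without YFP-POS replicate 1 or 2. Without ALL-SORT replicate 4, 4 ARFs were called, ARF8 (0.80, adjusted p = 0.0118) and ARF7 (0.49, 0.0482) being added, and the 7 Aux/IAA genes named were all called, with adjusted p between 0.00223 and 0.0286.

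YFP-NEG over ALL-SORT called 8 of 15 ARFs, all lower, where 2.65% of 18658 genes were higher and 10.9% lower, and where 18.9% of the 3695 genes in the ARF length range were lower. The libraries of 9 ARFs lay below ALL-SORT without overlap, and 22.1% of all genes did not overlap. Of all calls, 19.5% were higher, and 35% with upper-quartile scaling. The log2 fold changes were -1.2 ± 0.19 (SE, with an adjusted p of 0.00549) for ARF6, -0.96 ± 0.12 (SE, with an adjusted p of 0.00475) for ARF3 and -0.93 ± 0.20 (SE, with an adjusted p of 0.0146) for ARF8. The others were ARF4 (-0.70), ARF7 (-0.58), ARF1 (-0.54), ARF2 (-0.53) and ARF18 (-0.44), with adjusted p between 0.0149 and 0.0361. The ARF count was 4 without ALL-SORT replicate 3. It was 3 without YFP-NEG replicate 1 or 4, 5 without YFP-NEG replicate 2 and 2 without YFP-NEG replicate 3. ARF3 and ARF6 were called in each of these fits. Of all genes, 6.36% were called without ALL-SORT replicate 3, against 13.6% with all libraries and 11.8% without ALL-SORT replicate 4. Without YFP-NEG replicate 1, 2, 3 or 4 the shares were 5.79%, 9.65%, 4.64% and 6.59%. Without ALL-SORT replicate 4 the ARF count was 7, since ARF18 missed the threshold (-0.40, adjusted p = 0.0591), and the values were -1.01 for ARF6, -0.94 for ARF3 and -0.68 for ARF8. Of 23 Aux/IAA genes, IAA1 was higher (0.85 ± 0.25 (SE, with an adjusted p of 0.0467)) and IAA32 and IAA13 lower (-1.38 and -0.57, adjusted p = 0.0312 and 0.0497). Without ALL-SORT replicate 4 all 3 were called, IAA1 at 0.62, IAA32 at -1.52 and IAA13 at -0.60, with adjusted p of 0.0235, 0.0246 and 0.047. The replicate block brought the Aux/IAA count to 7, adding IAA2 (0.72), IAA28 (0.58) and IAA26 (0.44) as higher and IAA12 (-0.40) as lower. The Aux/IAA count in edgeR was 1 without ALL-SORT replicate 3 or YFP-NEG replicate 4. It was 0 without YFP-NEG replicate 1, 2 or 3, where 7 genes each had an unadjusted p under 0.05. With all libraries DESeq2 called 5 Aux/IAA genes, and 19.4% of all genes.

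Receptors that act on the Aux/IAA proteins and co-repressors that these proteins recruit were called higher in YFP-POS than in YFP-NEG with 1 exception, a receptor. Of all genes 24.4% were called higher, and 36.2% of those in the ARF length range, where 8 of these 11 genes lie. Of 6 TIR1/AFB receptor genes 5 were called higher, led by AFB5 at 1.14 ± 0.13 (SE, with an adjusted p of 2.92e-05), TIR1 at 0.92 ± 0.14 (SE, with an adjusted p of 0.000243) and AFB2 at 0.58 ± 0.13 (SE, with an adjusted p of 0.00345). All 5 TPL/TPR co-repressor genes were called higher, led by TPR3 at 1.44 ± 0.12 (SE, with an adjusted p of 4.07e-06), TPR1 at 1.22 ± 0.14 (SE, with an adjusted p of 2.93e-05) and TPR2 at 1.01 ± 0.13 (SE, with an adjusted p of 6.01e-05). The medians were 0.56 over the receptors and 1.01 over the co-repressors. In ALL-SORT over NO-SORT these 11 genes had log2 fold changes between -0.10 and 0.38, and 11 of 11 missed edgeR's threshold, 2 of them with an unadjusted p under 0.05, where 13.4% of all genes were called. Without ALL-SORT replicate 4, where 29.7% were, TIR1 and AFB2 were called higher, at 0.40 and 0.31 (adjusted p = 0.0337 and 0.0358).

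Downstream, the GH3 genes, which encode enzymes that conjugate auxin to amino acids, split. Beside the counts that follow for YFP-POS over YFP-NEG, 24.4% of all genes were called higher and 24.4% lower. GH3.1, GH3.2 and GH3.3 were higher in YFP-POS, with mean levels of 9.12, 381 and 650 CPM in YFP-POS and 1.04, 53.4 and 106 CPM in YFP-NEG and log2 fold changes of 3.11, 2.81 and 2.59. GH3.17 and GH3.6 were lower, at -1.98 and -1.71, and 1 of 6 tested was not called. Of 8 tested target genes of ARF5, ARF3 or ARF7 and ARF19, 3 were higher and 4 lower. PID, a kinase gene of polar auxin transport, was higher at 1.25 ± 0.13 (SE, with an adjusted p of 1.42e-05), and the ARF5 targets TMO5 and ATHB8 were lower at -1.98 ± 0.23 and -1.41 ± 0.20 (SE). These 3 had the largest changes, and the list went both ways. The libraries of 4 targets lay above YFP-NEG without overlap and of 4 below, where 51.1% of all genes did not overlap in either direction. ANT, another listed target, had 8560, 5223 and 6824 raw counts in YFP-POS and 3925, 2934, 4008 and 3209 in YFP-NEG. These counts are not scaled to the unequal totals of the libraries. SAUR genes are a family of short auxin-induced transcripts, of which 16 entries were listed and 5 tested. Of these, 3 were called lower: SAUR19 (-3.20), SAUR24 (-2.05) and SAUR29 (-2.02), each with a mean below 2 CPM in both groups. The entry SAUR21 has 2865 bp of exon and is no short transcript, so its place in this list is uncertain.

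Among the small RNA pathway genes, 7 of 18 were tested in YFP-POS over YFP-NEG, of which 2 were called higher and 2 lower. Of all genes, 24.4% were called higher and 24.4% lower there. RDR6 and SGS3, which make the double-stranded RNA from which tasiR-ARF is cut, were higher in YFP-POS by 1.07 ± 0.14 (SE, with an adjusted p of 7.65e-05) and 1.17 ± 0.13 (SE, with an adjusted p of 2.55e-05). The TAS3B and TAS3A precursor transcripts were lower, at -2.52 ± 0.71 and -1.16 ± 0.36 (SE), on mean levels of 0.564 and 2.13 CPM in YFP-POS and 3.1 and 4.78 CPM in YFP-NEG. In ALL-SORT over NO-SORT, TAS3A, TAS3B and TAS3C were called lower, at -1.56, -1.38 and -1.62, and at -2.01, -1.85 and -2.05 without ALL-SORT replicate 4; 3.6% of all genes were lower with all libraries. The TAS3 targets ARF2, ARF3 and ARF4 had log2 fold changes of 0.02, -0.07 and -0.42 there, none of them called, and of -0.06, -0.09 and -0.61 without ALL-SORT replicate 4, ARF4 alone being called.

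**Figure D5:**
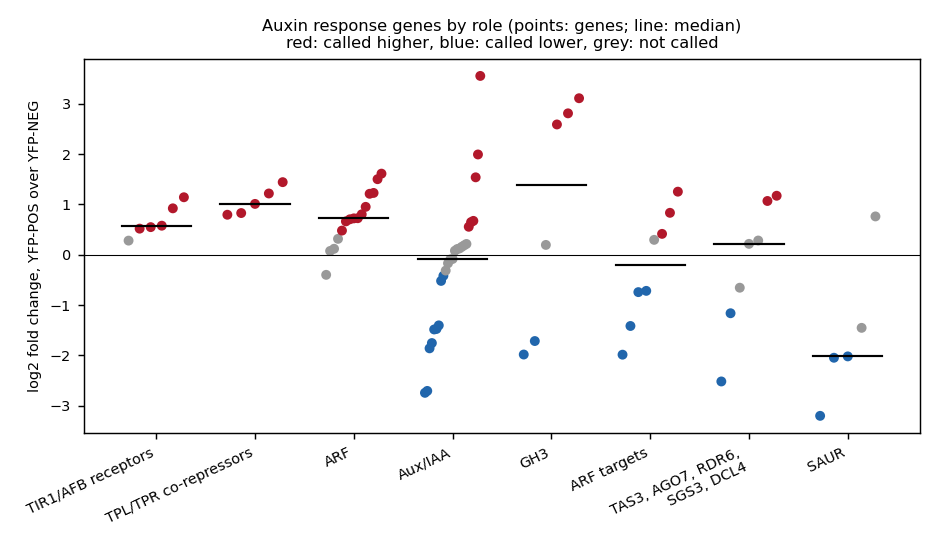
Log2 fold change of YFP-POS over YFP-NEG for each tested gene (point) of the auxin response lists, with the list's median as a line; red was called higher, blue lower and grey not called. All 5 co-repressor genes are red, with a median of 1.01, while the Aux/IAA genes spread from -2.74 to 3.55 around a median of -0.08.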

How the data were processed

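RNA was sequenced from 15 Arabidopsis libraries, each run in 2 lanes, which give the 30 samples of the series. Strand-specific libraries were read single-end for 125 cycles, and RNA integrity numbers were above 7.3, per the labels. The authors deposited raw counts per locus in 1 table of YFP-POS and YFP-NEG and 1 of ALL-SORT and NO-SORT, with 1 column per biological replicate. FastQC, TopHat2 2.0.10, HTSeq, Cufflinks 2.2.1, edgeR and DESeq2 and build TAIR10 are named in the submitters' processing notes. The strand setting of the counting and the joining of lanes are not given in the sources used here. Columns were mapped to groups by name, with none left over.

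Counts were tested with edgeR 4.0.16 in R 4.3.3 (quasi-likelihood F test, filterByExpr defaults, TMM scaling, Benjamini-Hochberg adjustment over all genes tested), with only the libraries compared in each fit. All adjusted p-values of genes come from this test unless DESeq2 1.42.0 is named, and genes were called below 0.05. The standard error is the log2 fold change over the square root of F. CPM come from edgeR after TMM scaling over 15 libraries, and SDs are over biological replicates. Scripts were tested on simulated data. Loci, exon lengths, promoters and miRNAs came from RefSeq on TAIR10.1, where all 44 members matched by locus. No protein sequences were used.

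Members and lists were chosen with earlier results of these data known. Every called member was named, as were ARF3, ARF5, ARF6, ARF8 and IAA12 in YFP-POS over YFP-NEG and ALL-SORT over NO-SORT, and the 3 called genes of each other list with the largest change in YFP-POS over YFP-NEG. GH3.6, GH3.17, ANT and RDR6 were named beyond this rule, as were list members in ALL-SORT over NO-SORT, after their values were seen.

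Replicate numbers paired the sorted libraries: deviations of same-numbered libraries from their group means correlated across genes at 0.265 to 0.358 for YFP-POS with YFP-NEG, 0.455 to 0.583 for YFP-POS with ALL-SORT and 0.150 to 0.404 for YFP-NEG with ALL-SORT, all over the limit of 0.1. Genes are not independent replicates. The alternatives tried were scaling by RLE, by the upper quartile and by library totals, a fit without the filter on low counts, a filter at 1 CPM in 3 libraries, DESeq2, the replicate block, all 15 libraries in 1 fit, an adjusted p under 0.01, and each library left out in turn.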

Additional observations from a re-analysis of the deposited data

Results flagged for a closer look

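In groups of 4 libraries, a library was marked where its gap to the nearest other library relative to the group's range exceeded Dixon's critical value. This met 11 of the 123 member and group combinations examined, where chance marks about 1 in 20.

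In YFP-NEG, ARF11 had 63.3 CPM in replicate 1 (46.2 to 48.3 in the others), IAA5 had 2.08 CPM in replicate 3 (0.296 to 0.590) and IAA32 had 2.07 CPM in replicate 4 (0.885 to 1.03). In ALL-SORT, IAA1 had 4.62 CPM in replicate 4, against 9.93 to 10.7 in the others. In NO-SORT, replicate 1 was high for 3 ARFs: ARF2 had 595 CPM (440.5 to 442 in the others), ARF11 had 66.2 CPM (56.9 to 58.3) and ARF18 had 166 CPM (121 to 128). IAA2 had 9.65 CPM in NO-SORT replicate 3 (7.42 to 7.75 in the others). NO-SORT replicate 4 was marked for IAA3 at 7.31 CPM (10.5 to 11), IAA11 at 19.1 CPM (15.3 to 15.7) and IAA20 at 3.68 CPM (1.84 to 2.08).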

How the results depend on the processing

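Called members in YFP-POS over YFP-NEG stayed within 1.5 times 11 ARFs and 15 Aux/IAA genes under every alternative run. The Aux/IAA count reached that limit at an adjusted p under 0.01, with 10 called, 5 higher and 5 lower. The ARF count there was 11, and 33.8% of all genes were called, against 48.8%. As single libraries were left out, 11 to 13 ARFs and 11 to 15 Aux/IAA genes were called. In ALL-SORT over NO-SORT the ARF count was 0, against 1 with library totals and 1 with all 15 libraries in the fit; it was 0 to 3 as single libraries were left out and 3 without ALL-SORT replicate 4 and NO-SORT replicate 1 together, a setting added after seeing the data. The Aux/IAA count was 6, against 3 at an adjusted p under 0.01 and 3 to 7 as single libraries were left out. In YFP-POS over ALL-SORT, 2 ARFs and 7 Aux/IAA genes became 7 and 14 with the replicate block and 1 and 3 at an adjusted p under 0.01, the Aux/IAA count was 12 with all 15 libraries, and leaving out libraries gave 1 to 4 ARFs and 3 to 8 Aux/IAA genes. In YFP-NEG over ALL-SORT, 8 ARFs became 2 and 3 Aux/IAA genes became 0 at an adjusted p under 0.01, where 7 Aux/IAA genes had an unadjusted p under 0.05; the Aux/IAA count was 5 with DESeq2, 5 with all 15 libraries and 7 with the replicate block, and leaving out libraries gave 2 to 9 ARFs and 0 to 3 Aux/IAA genes. Calls over all genes shifted too. As single libraries were left out, they were 42.6% to 48% of genes in YFP-POS over YFP-NEG and 6.36% to 29.7% in ALL-SORT over NO-SORT. They were 5.93% to 16.7% in YFP-POS over ALL-SORT and 4.64% to 15.9% in YFP-NEG over ALL-SORT. In YFP-POS over ALL-SORT, 13.8% became 43% with the block, 24% with all 15 libraries and 4.92% at an adjusted p under 0.01. In YFP-NEG over ALL-SORT, 13.6% became 18.9%, 17% and 3.4% in these settings, and 19.4% with DESeq2. In ALL-SORT over NO-SORT, 13.4% became 5.12% at an adjusted p under 0.01. This share was 31.4% without ALL-SORT replicate 4 and NO-SORT replicate 1. The cause of these shifts was not tested.

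The alternatives were also run for 84 log2 fold changes of single members: those called, ARF3, ARF5, ARF6, ARF8 and IAA12, and the uncalled members discussed in the report. Each fold change was refitted under the alternatives, and 16 of the refitted values changed sign, all near 0 and not called. They belonged to ARF2, ARF6 and IAA12 in ALL-SORT over NO-SORT, ARF9 and ARF11 in YFP-POS over YFP-NEG and ARF11 in YFP-POS over ALL-SORT. In ALL-SORT over NO-SORT, upper-quartile scaling and library totals gave IAA12 -0.019 and -0.092 and ARF2 -0.0335 and -0.0954, and as single libraries were left out ARF2 ranged from -0.064 to 0.12 and ARF6 from -0.26 to 0.11. In YFP-POS over YFP-NEG those scalings gave ARF9 -0.019 and -0.00128, and the ranges were -0.054 to 0.13 for ARF9 and -0.024 to 0.25 for ARF11, which ranged from -0.014 to 0.30 in YFP-POS over ALL-SORT. The remaining values comprised 1184 on the same side of the threshold, 124 that no longer passed and 60 that newly passed. The replicate block changed no other call of a member than those given in the report; in ALL-SORT over NO-SORT the numbers did not pair the libraries (correlations of -0.0824 to 0.0457), and 0 ARFs were called with the block in edgeR, 3 having an unadjusted p under 0.05. The median over all genes shifted under upper-quartile scaling to -0.11 (log2) in YFP-POS over YFP-NEG, and under library totals to -0.16 in ALL-SORT over NO-SORT. Depth limits IAA15, IAA20 and IAA33, with as few as 1 to 10 counts in the lower group.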
